A study of Mus musculus with 8 samples.

Results

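Hepatic stellate cells are the vitamin A-storing pericytes of the liver sinusoid. In the quiescent state they esterify retinol, wrap the sinusoidal endothelium and secrete hepatocyte growth factor, and after injury they can turn into contractile, collagen-secreting myofibroblasts. Platelet-derived growth factor is a mitogen for these cells, and α-smooth muscle actin is the usual marker of their activated state. The genes described here are 10 genes of stellate cell quiescence and activation, chosen by symbol. They are *Acta2* and *Tagln* of the contractile apparatus, the PDGF receptors *Pdgfra* and *Pdgfrb*, the intermediate filament gene *Des*, the quiescence genes *Lrat* and *Reln*, the growth factor *Hgf*, the neurotrophin receptor *Ngfr* and the pericyte gene *Rgs5*. All 10 were found among the 52636 genes counted in each library, and all 10 were among the 15248 genes with enough counts to be tested.

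The values come from whole livers of 8 male C57BL/6J mice, with 1 stranded mRNA library per mouse. At 7 weeks of age the mice received an adeno-associated virus of serotype 8 (AAV8) by intraperitoneal injection. In 4 mice (303, 311, 314 and 315) it carried GFP, and in 4 mice (308, 309, 316 and 319) it carried human *AGXT*, which encodes the enzyme that forms glycine from glyoxylate. Both transgenes were driven by the hepatocyte-specific TBG promoter, which directs expression to hepatocytes and not to stellate cells. Both groups ate a MASH diet high in fat, fructose and cholesterol from 8 weeks of age for 24 weeks, and there was no group on another diet or without virus.

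Per mouse, 17095433 to 28780140 read pairs were counted on genes. The biological coefficient of variation was 23.3%. AAV8-AGXT mouse 308 had the lowest share of tallied pairs on genes, 56.3%, against 62.4% to 69.1% in the other mice. The human transgene is not a mouse gene and was not measured here. The mouse gene *Agxt* had 148 to 180 CPM (counts scaled to library size with edgeR's TMM factors) in AAV8-GFP mice and 201 to 405 CPM in AAV8-AGXT mice, and whether reads of the transgene were counted on it was not tested. By edgeR's quasi-likelihood F-test, 4.35% of all tested genes had a Benjamini-Hochberg adjusted p under 0.05, with 1.90% lower and 2.45% higher in AAV8-AGXT mice. Lower genes made up 43.7% of these calls, and 85.6% when library totals replaced the TMM factors, which moved all log2 fold changes by a median of -0.24.

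Of the 10 stellate cell genes, 1 was lower and 0 were higher in AAV8-AGXT mice at that threshold in edgeR, while DESeq2 gave 1 and 0 and limma-voom 0 and 0. Among all genes given an adjusted p, DESeq2 called 6.38% lower and 6.59% higher, and limma-voom 1.82% and 2.65%. The gene was *Acta2*, whose mean fell by 49.9%. At an unadjusted p under 0.05, 4 of the 10 genes were lower (*Acta2*, *Pdgfra*, *Pdgfrb* and *Des*) and 0 were higher, beside 12.6% and 13.5% of all tested genes. The log2 fold change was below 0 for 6 of the 10, beside 47.7% of all tested genes. The median log2 fold change was -0.24 for the 10 genes and 0.02 for all tested genes. In bulk liver RNA, fewer stellate cells and less RNA of these genes per cell cannot be told apart.

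**Figure D1:**
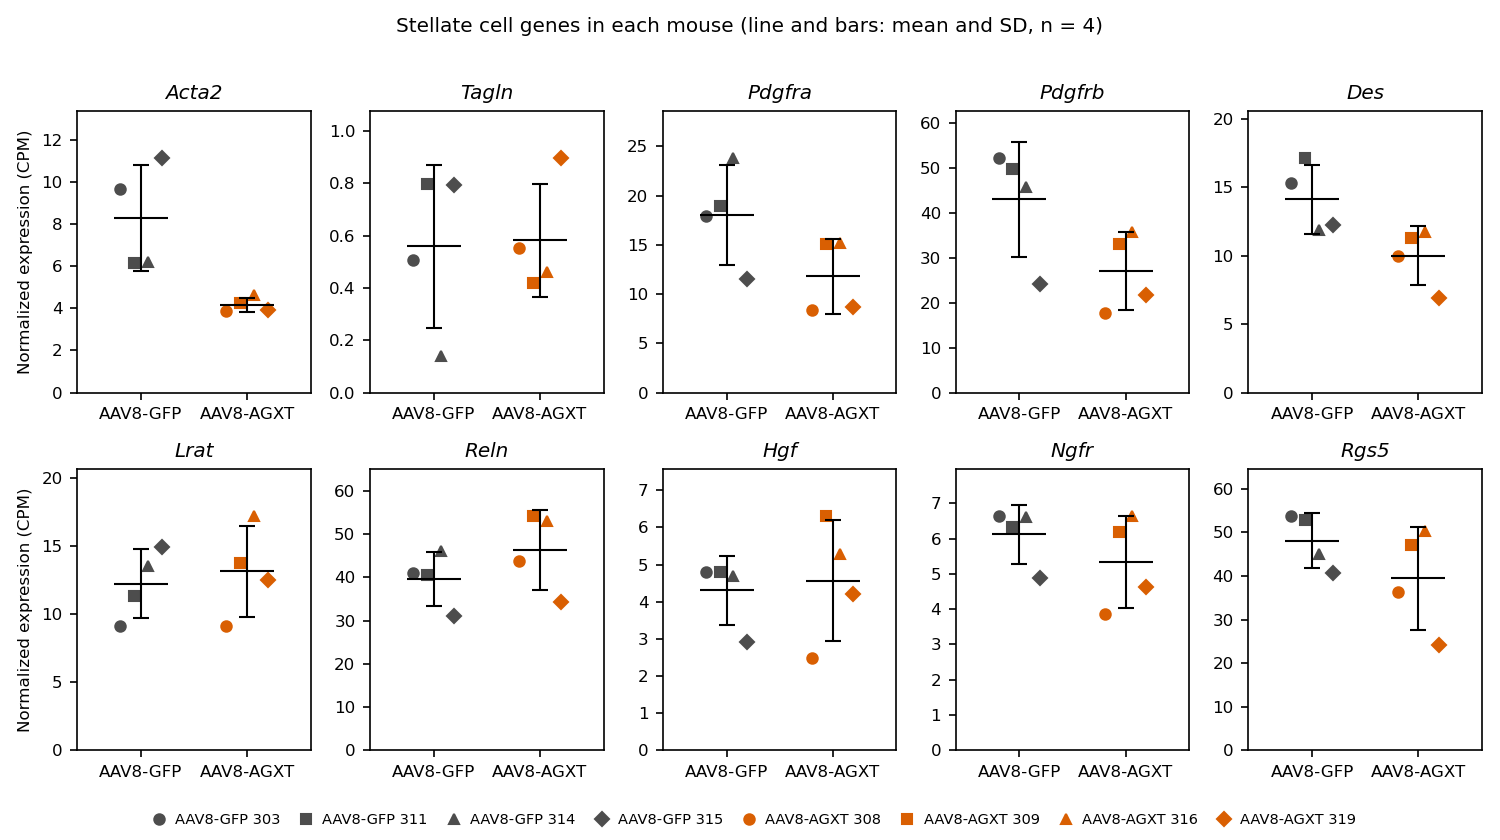
Normalized expression in CPM of the 10 stellate cell genes in each of the 4 AAV8-GFP and 4 AAV8-AGXT mice, with 1 symbol per mouse and the mean and SD as lines and bars. The groups separate for *Acta2* and *Des* and overlap for the other 8 genes.

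*Acta2* (ENSMUSG00000035783, minus strand of chromosome 19, 34241090 to 34255590 of GRCm38) encodes α-smooth muscle actin. AAV8-GFP mice 303, 311, 314 and 315 had 9.68, 6.18, 6.23 and 11.2 CPM, and AAV8-AGXT mice 308, 309, 316 and 319 had 3.87, 4.27, 4.62 and 3.92 CPM. All AAV8-AGXT mice were below all AAV8-GFP mice, and the AAV8-AGXT values lay close together, whereas mice 303 and 315 stood above 311 and 314 in the control group. The means were 8.31 ± 2.51 CPM and 4.17 ± 0.35 CPM (SD, n = 4 each). The fit gave a log2 fold change of -0.99 (SE 0.22, 95% interval -1.49 to -0.50, edgeR Benjamini-Hochberg adjusted p = 0.0427), and in rank by p *Acta2* was number 178 of the 290 genes called lower. The call lay close to the threshold. It was lost with limma-voom (adjusted p = 0.0622) and in edgeR without any single 1 of the 8 mice, where the adjusted p ran from 0.0575 without AAV8-AGXT mouse 309 to 0.116 without AAV8-GFP mouse 311, and the log2 fold change from -1.13 to -0.82.

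*Acta2* belongs to a family of 6 actin genes whose coding sequences are alike, which raises the question of whether its read pairs can be told from those of the others. The last 60 coding bases, stop codon included, are shown 5′ to 3′ from the GENCODE M21 transcripts, because all 6 genes can be compared there without gaps. Capitals mark bases that differ from *Acta2*.

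Acta2: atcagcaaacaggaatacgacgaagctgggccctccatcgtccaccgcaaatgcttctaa
Actg2: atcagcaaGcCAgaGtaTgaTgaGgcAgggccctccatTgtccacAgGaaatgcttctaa
Acta1: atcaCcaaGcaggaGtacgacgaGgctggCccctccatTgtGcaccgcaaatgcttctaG
Actc1: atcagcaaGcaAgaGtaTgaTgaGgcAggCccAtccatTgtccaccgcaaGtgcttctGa
Actb: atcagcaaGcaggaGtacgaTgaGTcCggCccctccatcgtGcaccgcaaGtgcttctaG
Actg1: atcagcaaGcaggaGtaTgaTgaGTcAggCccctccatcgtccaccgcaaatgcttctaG

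The *Acta2* stretch is chr19:34241667-34241726 in GRCm38, on the minus strand and in exon 9. The others, also on minus strands, are chr6:83512985-83513044 for the enteric smooth muscle actin *Actg2*, chr8:123892009-123892068 for the skeletal actin *Acta1*, chr2:114047466-114047525 for the cardiac actin *Actc1*, chr5:142903798-142903857 for the cytoplasmic actin *Actb* and chr11:120346390-120346449 for the cytoplasmic actin *Actg1*. Within these bases the other actins differed from *Acta2* at 8 to 12 positions, and over the coding sequence 81.6% to 85.4% of bases were identical. Of the 2146 windows of 50 bases in *Acta2* transcripts, 7 (0.326%) also occurred in transcripts of another gene.

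The other muscle actins were close to the detection limit. Counts ranged from 2 to 9 for *Actg2*, from 0 to 5 for *Acta1* and from 1 to 15 for *Actc1*, against 56 to 253 for *Acta2*. The cytoplasmic actins, which every cell expresses, did not pass the test. *Actb* had means of 1131 ± 60.9 CPM and 987 ± 113 CPM in the control and AGXT groups (SD, n = 4 each), with a log2 fold change of -0.20 (edgeR adjusted p = 0.367). *Actg1* was higher in all AAV8-AGXT mice (422 to 706 CPM) than in all AAV8-GFP mice (140 to 361 CPM), with a log2 fold change of 0.87 (edgeR adjusted p = 0.0945).

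*Tagln* (ENSMUSG00000032085, minus strand of chromosome 9, 45929619 to 45936058) encodes transgelin, an actin-binding protein of smooth muscle that usually accompanies *Acta2*. It was barely detected, with 13, 26, 3 and 18 counts in AAV8-GFP mice 303, 311, 314 and 315 and 8, 7, 9 and 19 counts in AAV8-AGXT mice 308, 309, 316 and 319. The groups overlapped widely, at 0.138 to 0.796 CPM and 0.421 to 0.897 CPM. Its log2 fold change was 0.05 (SE 0.49, edgeR adjusted p = 0.960), and its 95% interval of -1.04 to 1.151 includes a change of the size measured for *Acta2*. Of the 1988 exon bases of *Tagln*, 1241 (62.4%) lie opposite exons of the antisense gene *Gm48529*, which had 20 to 47 counts, and the strand setting of the counting is not given in the sources used here.

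The PDGF receptors, the tyrosine kinases through which PDGF ligands act on mesenchymal cells, had lower means in AAV8-AGXT mice that did not pass the adjusted threshold. *Pdgfrb* (ENSMUSG00000024620, plus strand of chromosome 18, 61045150 to 61085061) encodes the β-receptor, a pan-stellate marker. It had 52.2, 49.7, 45.9 and 24.3 CPM in AAV8-GFP mice 303, 311, 314 and 315 and 17.7, 33.1, 35.8 and 21.7 CPM in AAV8-AGXT mice 308, 309, 316 and 319. The overlap came from AAV8-GFP mouse 315, since the other 3 control mice were above all AAV8-AGXT mice. *Pdgfrb* had a log2 fold change of -0.67 (SE 0.28, 95% interval -1.28 to -0.05, edgeR adjusted p = 0.162), and without mouse 315 it was -0.86 with an adjusted p of 0.0639.

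*Pdgfra* (ENSMUSG00000029231, plus strand of chromosome 5, 75152292 to 75198215) encodes the α-receptor, which stellate cells share with fibroblasts. It had 17.9, 18.9, 23.8 and 11.5 CPM in AAV8-GFP mice and 8.35, 15.1, 15.2 and 8.64 CPM in AAV8-AGXT mice, in that order of mice. Mouse 315 was again the control that lay among the AAV8-AGXT values. *Pdgfra* had a log2 fold change of -0.61 (SE 0.26, 95% interval -1.20 to -0.02, edgeR adjusted p = 0.178).

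*Des* (ENSMUSG00000026208, plus strand of chromosome 1, 75360329 to 75368579) encodes desmin, the intermediate filament protein of muscle and of rodent stellate cells. AAV8-GFP mice 303, 311, 314 and 315 had 15.3, 17.1, 11.9 and 12.2 CPM, and AAV8-AGXT mice 308, 309, 316 and 319 had 10.01, 11.3, 11.7 and 6.94 CPM. All AAV8-AGXT mice were below all AAV8-GFP mice, but the nearest values, 11.9 and 11.7 CPM, almost touched. For *Des* the log2 fold change was -0.50 (SE 0.19, 95% interval -0.93 to -0.08, edgeR adjusted p = 0.135). Of the 10 genes, 2 (*Acta2* and *Des*) were lower without overlap and 0 were higher without overlap, beside 7.63% and 8.93% of all tested genes.

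The genes of the quiescent state did not pass the test in either direction. Their signs depend on the scaling. With library totals in place of TMM factors the log2 fold changes of *Lrat*, *Reln* and *Hgf* turned from above 0 to -0.10, -0.0075 and -0.13. That of the contractile gene *Tagln* likewise turned to -0.19. *Lrat* (ENSMUSG00000028003, minus strand of chromosome 3, 82892579 to 82903973) encodes lecithin retinol acyltransferase, which forms the retinyl esters that stellate cells store. It had 9.14, 11.4, 13.6 and 14.9 CPM in AAV8-GFP mice 303, 311, 314 and 315 and 9.11, 13.8, 17.2 and 12.5 CPM in AAV8-AGXT mice 308, 309, 316 and 319. The groups covered nearly the same range. The log2 fold change was 0.11 (SE 0.21, 95% interval -0.36 to 0.58, edgeR adjusted p = 0.786), an interval that does not reach the *Acta2* estimate in either direction.

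*Reln* (ENSMUSG00000042453, minus strand of chromosome 5, 21884454 to 22344702) encodes reelin, a secreted glycoprotein made in the liver by stellate cells. It had 40.9, 40.5, 46.1 and 31.1 CPM in AAV8-GFP mice and 43.8, 54.1, 52.9 and 34.2 CPM in AAV8-AGXT mice, in the same order of mice. The values of 2 AAV8-AGXT mice, 309 and 316, lay above all controls, while 308 and 319 lay within the control range. This gave a log2 fold change of 0.22 (SE 0.17, 95% interval -0.15 to 0.59, edgeR adjusted p = 0.423).

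*Hgf* (ENSMUSG00000028864, plus strand of chromosome 5, 16553495 to 16620152) encodes hepatocyte growth factor, the ligand of the Met receptor on hepatocytes. It had 4.80, 4.81, 4.71 and 2.91 CPM in AAV8-GFP mice and 2.49, 6.31, 5.29 and 4.20 CPM in AAV8-AGXT mice. The lowest mouse of each group was 315 and 308, and the other mice lay between 4.20 and 6.31 CPM. The log2 fold change was 0.09 (SE 0.29, 95% interval -0.55 to 0.73, edgeR adjusted p = 0.875). Of its windows of 50 bases, 6.02% also occur in 1 other gene, and a transcript model on the same strand, *Gm43489*, overlaps 484 of its exon bases and had 1 to 12 counts.

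*Ngfr* (ENSMUSG00000000120, minus strand of chromosome 11, 95568818 to 95587735) encodes the p75 neurotrophin receptor, which stellate cells and Schwann cells express. It had 6.64, 6.34, 6.60 and 4.90 CPM in AAV8-GFP mice and 3.87, 6.19, 6.63 and 4.62 CPM in AAV8-AGXT mice. Again mice 315 and 308 were the lowest of their groups, and the groups overlapped. *Ngfr* had a log2 fold change of -0.20 (SE 0.21, 95% interval -0.65 to 0.26, edgeR adjusted p = 0.576).

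*Rgs5* (ENSMUSG00000026678, plus strand of chromosome 1, 169655501 to 169695813) encodes a regulator of G protein signalling that marks pericytes and stellate cells. It had 53.7, 52.9, 45.0 and 40.8 CPM in AAV8-GFP mice and 36.2, 47.1, 50.3 and 24.2 CPM in AAV8-AGXT mice. The AAV8-AGXT mice spread more widely than the controls, from 24.2 to 50.3 CPM. For *Rgs5* the log2 fold change was -0.29 (SE 0.21, 95% interval -0.75 to 0.17, edgeR adjusted p = 0.407).

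**Figure D2:**
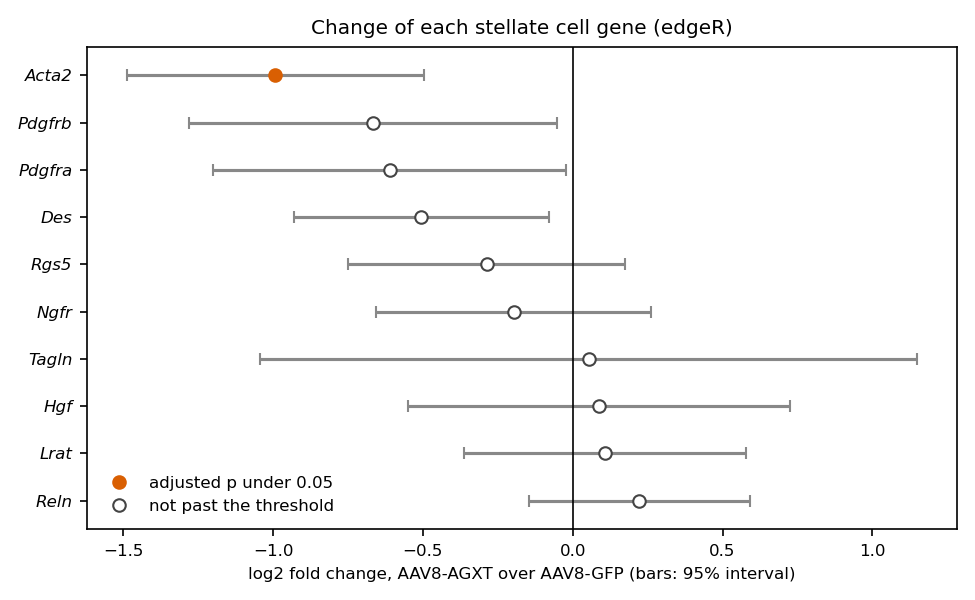
Log2 fold change of each of the 10 genes, AAV8-AGXT over AAV8-GFP, with its 95% interval from the edgeR fit (n = 4 each). The interval lies below 0 for *Acta2*, *Pdgfrb*, *Pdgfra* and *Des*, of which the filled point, *Acta2*, passed the adjusted threshold, and the interval of *Tagln* is the widest.

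Levels of different genes were compared per kilobase of exon. In AAV8-GFP mice *Rgs5* (10.6 ± 1.38 CPM per kb) and *Pdgfrb* (7.85 ± 2.33) were the most abundant, followed by *Acta2* (3.79 ± 1.14), *Des* (3.77 ± 0.67) and *Lrat* (2.29 ± 0.47; SD, n = 4 each). *Pdgfra*, *Ngfr* and *Reln* lay at 1.80, 1.77 and 1.67 CPM per kb, *Hgf* at 0.599 and *Tagln* at 0.281. In the AGXT group *Rgs5* (8.68 ± 2.60 CPM per kb) and *Pdgfrb* (4.94 ± 1.59) again led. *Acta2*, at 1.90 ± 0.16 CPM per kb, now stood below *Des* (2.66 ± 0.58), *Lrat* (2.46 ± 0.62) and *Reln* (1.95 ± 0.39). The neighbours *Acta2* and *Des* in AAV8-GFP mice, *Pdgfra*, *Ngfr* and *Reln* in the same mice, and *Reln* and *Acta2* in AAV8-AGXT mice differed by less than their SDs.

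*Pdgfra*, *Pdgfrb*, *Hgf* and *Ngfr* were lowest of each group in the same mice, 315 and 308. AAV8-GFP mouse 315 was the lowest of its group for 6 of the 10 genes and AAV8-AGXT mouse 308 for 6 of 10, and AAV8-AGXT mouse 316 was the highest of its group for 7 of 10. *Acta2* and *Lrat* went the other way in the controls, since mouse 315 had the most of both and the least *Pdgfrb*. *Tagln* and *Des* were lowest among the controls in mouse 314, at 0.138 and 11.9 CPM. The summed level of the 10 genes was 155 to 211 CPM in AAV8-GFP mice and 122 to 200 CPM in AAV8-AGXT mice.

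Ratios between pairs of these genes within each mouse do not depend on the scaling of the libraries. They ask whether these genes moved relative to each other in the liver, where fibroblasts and smooth muscle also express *Acta2*, *Tagln*, *Des* and the PDGF receptors. The log2 ratio of *Acta2* to *Lrat* counts was 0.08, -0.88, -1.12 and -0.42 in AAV8-GFP mice 303, 311, 314 and 315 and -1.23, -1.68, -1.89 and -1.67 in AAV8-AGXT mice 308, 309, 316 and 319. It was lower in all 4 AAV8-AGXT mice than in all 4 controls, by 1.04 between the means (-0.58 ± 0.53 and -1.62 ± 0.28, SD, n = 4 each). The two-sided exact permutation test gave p = 0.0286, the smallest value that 70 arrangements allow, and 0.143 after Benjamini-Hochberg adjustment over the 5 ratios tested. The difference did not pass the correction, but the correction cannot decide here. With the other ratios as measured, 0.143 was the lowest adjusted p that this ratio could reach.

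Relative to *Pdgfrb*, *Acta2* gave no separation. The log2 ratio averaged -2.36 ± 0.86 in controls and -2.64 ± 0.38 under AGXT (SD, n = 4 each, exact permutation p = 0.686, adjusted 0.686). AAV8-GFP mouse 315 stood at -1.12, above every other mouse, and without it the difference turned from -0.28 to 0.13. The ratio of *Acta2* to *Des* differed by -0.43 (exact permutation p = 0.257, adjusted 0.321), that of *Acta2* to *Tagln* by -1.21 (exact permutation p = 0.0857, adjusted 0.214) and that of *Lrat* to *Pdgfrb* by 0.76 (exact permutation p = 0.143, adjusted 0.238). In each of these the groups overlapped.

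**Figure D3:**
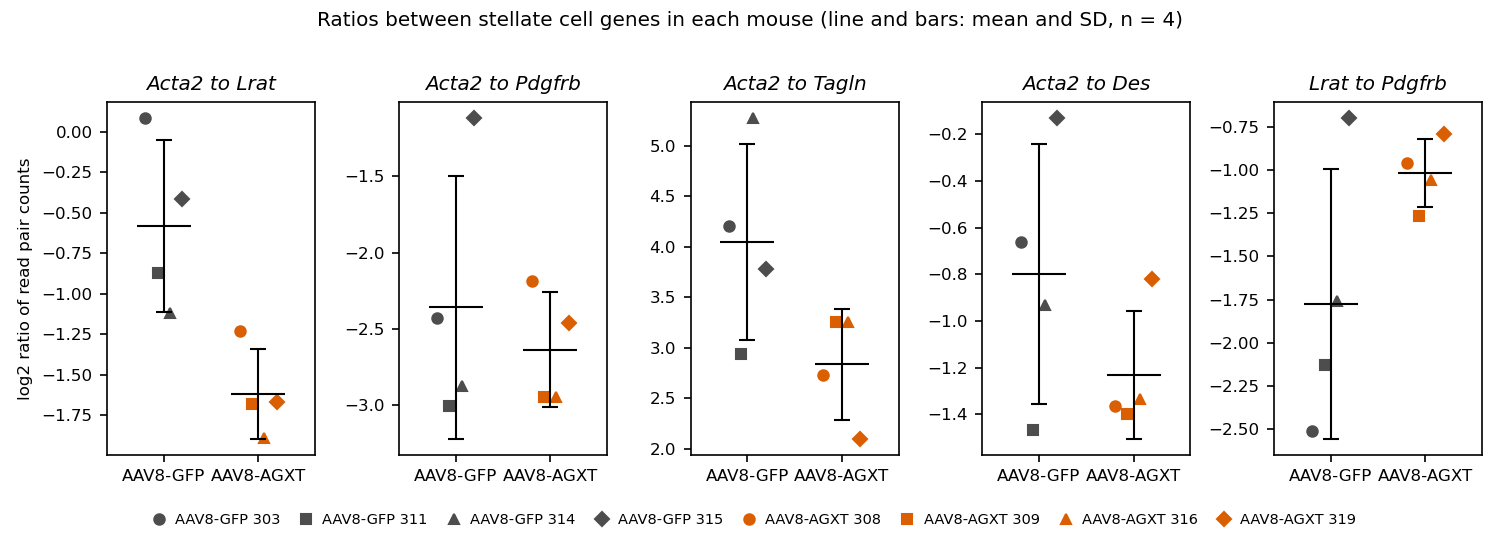
Log2 ratios of read pair counts between pairs of stellate cell genes in each mouse, with the mean and SD of 4 mice per group and a separate vertical scale in each panel. The groups separate for *Acta2* to *Lrat* and overlap in the other 4 panels, where AAV8-GFP mouse 315 is the highest in the panels of *Acta2* to *Pdgfrb*, *Acta2* to *Des* and *Lrat* to *Pdgfrb*.

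The genes around these members were taken from 11 lists of 109 genes, of which 93 were tested. At a Benjamini-Hochberg adjusted p under 0.05 in edgeR, 6 were lower and 2 were higher in AAV8-AGXT mice. The shares of all tested genes were 1.90% and 2.45%. The median log2 fold change of the 93 was -0.47. All 8 calls were lost without mouse 311, without mouse 314 and without mouse 319, and the calls of *Tcf21* and *Aldh1a2* also with limma-voom (adjusted p = 0.0513 and 0.0543). Of 16 other markers of activated stellate cells and myofibroblasts, all tested, 3 fell and 0 rose in edgeR, beside 1.90% and 2.45% of all tested genes. At an unadjusted p under 0.05, 13 were lower and 1 was higher, beside 12.6% and 13.5%. DESeq2 called 9 lower and 0 higher, beside 6.38% and 6.59% of genes, and limma-voom 3 and 0, beside 1.82% and 2.65%. A lower mean was found for 15 of the 16, beside 47.7% of all tested genes, with a median of -1.13. The genes that fell in edgeR were *Timp1*, an inhibitor of matrix metalloproteinases (log2 fold change -2.29, adjusted p = 0.0444), *Ltbp2*, a microfibril-associated protein (-1.76, 0.0279), and *Vim*, the intermediate filament vimentin (-1.004, 0.0461). *Timp1* had 8.40, 15.3, 17.2 and 9.04 CPM in AAV8-GFP mice 303, 311, 314 and 315 and 0.483, 3.55, 4.62 and 1.46 CPM in AAV8-AGXT mice 308, 309, 316 and 319. The controls with the most *Timp1*, 311 and 314, were those with the least *Acta2*. *Loxl1*, a collagen and elastin crosslinking enzyme, had a log2 fold change of -1.49 (adjusted p = 0.0528).

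Of 16 other markers of quiescent stellate cells, 1 fell and 1 rose in edgeR, beside 1.90% and 2.45% of all tested genes. The median was -0.11. At an unadjusted p under 0.05, 3 were lower and 4 were higher, beside 12.6% and 13.5%. DESeq2 called 3 lower and 4 higher, beside 6.38% and 6.59% of genes, and limma-voom 0 and 1, beside 1.82% and 2.65%. *Tcf21*, a mesenchymal transcription factor, fell by 1.13 on the log2 scale (edgeR adjusted p = 0.0489), with 9.31 to 18.8 CPM in AAV8-GFP mice and 4.49 to 8.23 CPM in AAV8-AGXT mice. *Colec10*, a collectin, rose by 0.94 (adjusted p = 0.0450), with 4.75 to 8.78 CPM and 9.11 to 15.0 CPM. Neither pair of ranges overlapped. The cytoglobin gene *Cygb* had a log2 fold change of -0.84 (edgeR adjusted p = 0.0739).

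Of 12 contractile smooth muscle genes 9 were tested. In edgeR 1 fell and 0 rose, beside 1.90% and 2.45% of all tested genes, and the median was -0.14. At an unadjusted p under 0.05, 2 were lower and 0 were higher, beside 12.6% and 13.5%. DESeq2 called 1 lower and 0 higher, beside 6.38% and 6.59% of genes, and limma-voom also 1 and 0, beside 1.82% and 2.65%. *Tpm1*, a tropomyosin, fell by 0.65 (edgeR adjusted p = 0.0363), with 79.2 to 91.8 CPM in AAV8-GFP mice and 42.3 to 64.8 CPM in AAV8-AGXT mice. *Actg2*, *Cnn1* and *Pln*, named because they were the 3 not tested, had too few counts. *Smtn*, *Cald1* and *Tpm2* had log2 fold changes of -0.56, 0.34 and 0.35 (adjusted p = 0.106, 0.228 and 0.310). Of 11 regulators and targets of the SRF, myocardin and YAP transcription factors, which can switch on *Acta2* and *Tagln*, 10 were tested and 0 passed in edgeR (1 lower in DESeq2, beside 6.38% of genes, and 0 in limma-voom), with 3 lower and 0 higher at an unadjusted p under 0.05, beside 12.6% and 13.5% of all tested genes, and a median of -0.30. The coactivators *Mrtfa* and *Mrtfb* had log2 fold changes of -0.52 and -0.40 (adjusted p = 0.0919 and 0.139), *Tead1*, the DNA-binding partner of YAP, -0.47 (0.175), and the YAP target *Ankrd1* -1.12 (0.244).

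The ligands of the PDGF receptors all had lower means, beside 47.7% of all tested genes, and 0 passed in edgeR (2 lower in DESeq2, beside 6.38% of genes, and 0 in limma-voom). At an unadjusted p under 0.05 in edgeR 3 of the 4 were lower, beside 12.6% of all tested genes. *Pdgfb*, *Pdgfa*, *Pdgfc* and *Pdgfd* had log2 fold changes of -0.99, -0.58, -0.67 and -0.49 (adjusted p = 0.0697, 0.0844, 0.123 and 0.493). Among 6 genes for the HGF receptor and the proteases and inhibitors that govern HGF activation, 0 passed in edgeR (2 lower and 1 higher in DESeq2, beside 6.38% and 6.59% of genes, and 0 in limma-voom), with 3 lower and 3 higher at an unadjusted p under 0.05, beside 12.6% and 13.5% of all tested genes. The protease gene *Hpn* had a log2 fold change of 0.40 (adjusted p = 0.0816) and the protease gene *St14* one of -1.37 (0.105). The inhibitor genes *Spint1* and *Spint2* had log2 fold changes of -0.995 and -0.295 (0.127 and 0.0765).

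Among the neurotrophin receptor genes other than *Ngfr*, *Ntrk2* and *Ntrk3* had log2 fold changes of -0.73 and -0.81 (edgeR adjusted p = 0.292 and 0.331). The reelin receptors *Vldlr* and *Lrp8* and the adaptor *Dab1* had -0.28, -0.77 and -0.96 (adjusted p = 0.509, 0.267 and 0.287), and 0 of the 3 passed in edgeR, at an unadjusted p under 0.05, in DESeq2 or in limma-voom.

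Of 13 genes of retinoid uptake, storage and use, 9 were tested. In edgeR 1 fell and 0 rose, beside 1.90% and 2.45% of all tested genes, and the median was -0.06. At an unadjusted p under 0.05, 2 were lower and 3 were higher, beside 12.6% and 13.5%. DESeq2 called 1 lower and 3 higher, beside 6.38% and 6.59% of genes, and limma-voom 0 and 0. *Aldh1a2*, a retinaldehyde dehydrogenase that makes retinoic acid, fell by 1.81 (edgeR adjusted p = 0.0465), with 0.859 to 1.87 CPM in AAV8-GFP mice and 0.236 to 0.621 CPM in AAV8-AGXT mice. The call rests on few counts, 21 to 61 per AAV8-GFP mouse and 5 to 9 per AAV8-AGXT mouse. *Aldh1a1*, a related enzyme that hepatocytes express, had a log2 fold change of 0.52 (adjusted p = 0.0677), the retinoic acid receptor gene *Rarb* one of -1.05 (0.0795), and *Cyp26b1*, which breaks down retinoic acid, one of 1.10 (0.0844). Counts of *Rarb* were also low, 14 to 32 per AAV8-GFP mouse and 6 to 9 per AAV8-AGXT mouse. *Crabp2* had 0 counts in every mouse. Of 6 pericyte and vascular smooth muscle markers 4 were tested and 0 passed in edgeR, at an unadjusted p under 0.05, in DESeq2 or in limma-voom, with *Notch3*, *Mcam*, *Kcnj8* and *Abcc9* at -0.54, -0.22, 0.04 and 0.13 (adjusted p = 0.205, 0.624, 0.950 and 0.787).

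**Figure D4:**
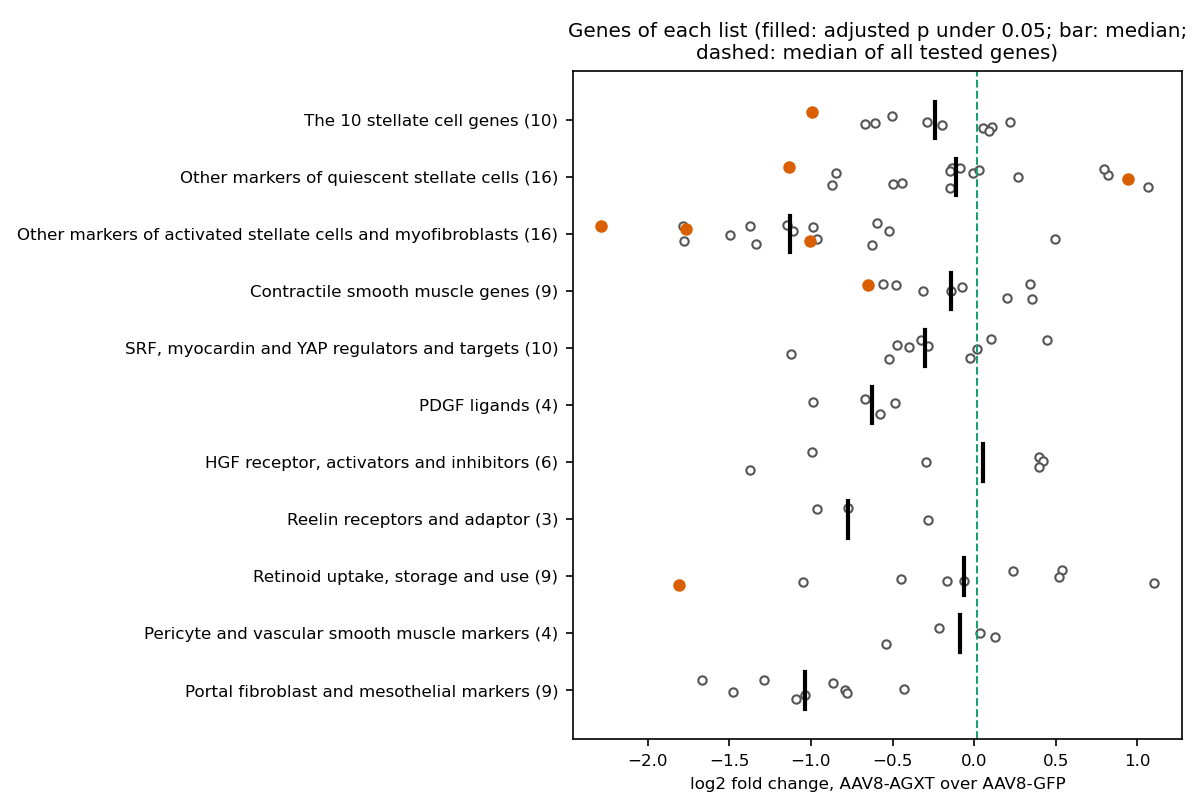
Log2 fold changes, AAV8-AGXT over AAV8-GFP, of the tested genes in each list except the neurotrophin list (number in brackets, 1 point per gene, n = 4 mice each). Filled points passed an adjusted p of 0.05, the bars are list medians and the dashed line is the median of all tested genes; the medians of the activation and portal fibroblast lists lie below -1.

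Summed levels of markers of other liver cells separated the groups for hepatocytes and overlapped for the other cell types, and these sums were not tested. Of 14 portal fibroblast and mesothelial markers, which share *Pdgfra* and *Pdgfrb* with stellate cells, 9 were tested and 0 passed in edgeR (6 lower in DESeq2, of 11 with an adjusted p and beside 6.38% of genes, and 0 in limma-voom). All 9 had lower means, beside 47.7% of all tested genes, and 7 were lower at an unadjusted p under 0.05, beside 12.6%. Their median was -1.04, and their summed level was 60.6 to 133 CPM in AAV8-GFP mice and 21.9 to 65.0 CPM in AAV8-AGXT mice. *Eln*, *Fbln1*, *Pi16* and *Entpd2* had log2 fold changes of -1.29, -1.09, -1.04 and -0.87 (adjusted p = 0.0732, 0.0810, 0.0679 and 0.0658). All 7 hepatocyte markers had higher means, as did 7974 of the 15248 tested genes, and 1 rose in edgeR, beside 2.45% of those genes. At an unadjusted p under 0.05, 5 were higher, beside 13.5%. Their summed levels were 44281 to 53003 CPM and 54184 to 76366 CPM, highest in mouse 308. *Alb*, named as the largest part of this sum, overlapped between the groups, at 25931 to 34525 CPM and 32356 to 43389 CPM. All 5 cholangiocyte markers had lower means, beside 47.7% of all tested genes, and 4 were lower at an unadjusted p under 0.05, beside 12.6%. Their summed levels were 24.1 to 65.3 CPM and 13.9 to 34.6 CPM, lowest among controls in mouse 315. Of the 7 macrophage and leucocyte markers 5 had lower means, beside 47.7% of all tested genes. At an unadjusted p under 0.05, 2 of them were lower, beside 12.6%. The sums of the 7 markers were 268 to 409 CPM and 162 to 433 CPM. All 7 endothelial markers had higher means, as did 7974 of the 15248 tested genes, with sums of 131 to 199 CPM and 139 to 253 CPM. At an unadjusted p under 0.05, 0 of them were higher, beside 13.5% of all tested genes. The part of these cell types in the values of the stellate cell genes was not tested.

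Markers of other tissues that express some of these genes were low. The 5 Schwann cell markers, relevant to *Ngfr*, summed to 6.17 to 9.00 CPM in AAV8-GFP mice and 3.11 to 6.88 CPM in AAV8-AGXT mice, with the defining gene *Sox10* at 0 to 3 counts per mouse. The 7 skeletal muscle markers, relevant to *Des*, summed to 1.15 to 2.30 CPM and 0.841 to 2.03 CPM, with *Myh1* and *Myh4* at 0 in every mouse. The 4 adipose tissue markers summed to at most 0.469 CPM, and *Lep* was at 0 in every mouse.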

How the data were processed

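The deposited files hold raw counts of read pairs per Ensembl gene, 1 file per mouse, with treatment taken from the sample titles. The authors prepared stranded mRNA libraries, trimmed with Trimmomatic 0.35, mapped to GRCm38 with HISAT2 and counted with HTSeq, whose strand setting is not given in the sources used here. Tally rows that name no gene, 30.9% to 43.7% of each file's total, were left out. Gene symbols, exon lengths and overlaps came from GENCODE M21, also on GRCm38, which held 52403 of the 52636 genes.

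Counts were tested in R 4.3.3 with edgeR 4.0.16 (filterByExpr, TMM, quasi-likelihood F-test, treatment as the only term, prior count 0.125), with Benjamini-Hochberg adjustment over 15248 genes. Intervals are edgeR estimates with the t distribution of the fit. Ratios added 0.5 to each count. Permutation tests over mice were two-sided and exact. The alternatives were DESeq2 1.42.0, limma-voom (limma 3.58.1), DESeq2's size factors, total counts, no filter, 2 added counts in ratios and each mouse left out. The procedure was tested on simulated counts. Each mouse is a separate animal.

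The 10 genes and all lists were chosen with earlier results of these data known. The text names all 10, per list the 4 tested genes with the smallest p and genes at 0 in every mouse, the actins and *Agxt*; other names are stated to be chosen otherwise, or are cell type markers given without a test. A few listed genes are counted with their lists but not reported individually.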

Additional observations from a re-analysis of the deposited data

Results flagged for a closer look

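In each group of 4 mice, a value was singled out when its gap to the nearest other mouse, as a share of the group's whole range, was above the 95% critical value of Dixon's test. About 1 in 20 groups meets this by chance, and 116 groups were examined. AAV8-GFP mouse 315 had 2.91 CPM of *Hgf*, against 4.71 to 4.81 CPM in the other 3 controls, a gap of 0.947 of the range. AAV8-AGXT mouse 319 had a log2 ratio of *Acta2* to *Des* of -0.82, against -1.40 to -1.34 in the other 3 mice, a gap of 0.892 of the range. Mouse 319 had the least *Des* of all mice, 6.94 CPM.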

How the results depend on the processing

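Of 130 values of the 10 genes under the alternatives, 111 kept direction and side of the threshold, 9 (all of *Acta2*) lost the call and 10 changed sign; for 43 named genes of the lists, 468 of 559 did, 47 lost the call, 37 gained it and 7 changed sign. All-gene counts of lower and higher calls were 1034 and 1068 with DESeq2 and 857 and 144 with total counts, which shifted all log2 fold changes by a median of -0.24 and made 85.6% of calls lower against 43.7%. limma-voom called 0 of the 10 genes. In the lists, lower calls were 26 with DESeq2, 14 with total counts and 17 without the filter, and higher calls 9 and 1 with DESeq2 and total counts. Total counts turned *Tagln* to -0.19, *Lrat* to -0.10, *Reln* to -0.0075, *Hgf* to -0.13, *Kcnj8* to -0.19 and *Abcc9* to -0.098.

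With each mouse left out, lower calls ranged from 0 to 325 and higher calls from 2 to 379 over all genes, from 0 to 0 and 0 to 0 over the 10 genes, and from 0 to 11 and 0 to 2 over the lists. With all mice there were 664 all-gene calls. These became 193 without mouse 303, 2 without 311, 15 without 314 and 629 without 315. For the AAV8-AGXT mice they became 177 without 308, 643 without 309, 411 without 316 and 14 without 319. Of the 8 called list genes, all 8 lost the call without 311, without 314 and without 319, 6 without 303, 5 without 308, 4 without 309, 3 without 316 and 1 without 315. Log2 fold changes ran from -0.27 to 0.27 for *Tagln*, -0.046 to 0.23 for *Lrat*, -0.12 to 0.27 for *Hgf*, -0.16 to 0.27 for *Kcnj8* and -0.040 to 0.32 for *Abcc9*. Differences of log2 ratios ran from -1.21 to -0.81 for *Acta2* to *Lrat*, -0.49 to 0.13 to *Pdgfrb*, -1.58 to -0.80 to *Tagln* and -0.66 to -0.21 to *Des*, and from 0.51 to 1.11 for *Lrat* to *Pdgfrb*. No paired analysis was possible because the groups share no replicate numbers. With 4 mice per group the spread between mice limits what can be called, and for *Tagln* its low counts do as well.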
